A study of Mus musculus with 4 samples.

Results

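RNA recovered with fibrillarin was compared between AF357425-High and AF357425-Low primary mouse fibroblasts. The comparison rests on 2 of the 4 libraries of the series, 1 for each state, taken by their sample titles, and covers all 55536 genes of the deposited pulldown table. The other 2 libraries hold whole-cell RNA of the same states and are given beside the pulldown. AF357425 belongs to the C/D box snoRNAs (small nucleolar RNAs) encoded at Dlk1-Dio3, an imprinted locus.

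All groups were fibroblasts grown from the ears of C57BL/6 mice. In all of them KN93, a kinase inhibitor given to synchronize the cells, was present for 48 h before a transfection of 24 h. The AF357425-High libraries are labelled as overexpression and the AF357425-Low libraries as inhibition, while the protocol shared by all samples names gapmers (antisense oligonucleotides that direct RNase H to their target) against AF357425 or with a scrambled sequence. The sources used here do not say which of these each state received, nor the age and sex of the mice, their number, or whether pulldown and whole-cell RNA came from the same cultures. The antibody was Abcam ab5821, and depletion of ribosomal RNA was applied to the pulldowns and not to whole-cell RNA. AF357425 (chr12:109636012-109636080, GRCm38.p6, inside the span of Rian) had 0 reads in each library, so the labels could not be checked against it.

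Fibrillarin is the methyltransferase of the C/D box snoRNP, the particle in which a guide RNA pairs with ribosomal or other RNA and positions the methyl transfer to the ribose. The particle also holds Nop56, Nop58 and Snu13, and it gathers in the nucleolus and in Cajal bodies. A pulldown with fibrillarin is therefore a way to ask which RNAs sit with this machinery, and the High against Low comparison asks how the recovered RNAs differ between the states of AF357425. The series holds no control pulldown, so recovery of an RNA does not by itself show that it sits with fibrillarin. With 1 library on each side there is no replicate check. No p-value is given, and every interval below is a 95% interval that covers counting error only. Reads copied by PCR and carrying no molecular identifier cannot be taken as independent molecules, so the intervals may be too narrow even for that error.

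The pulldown libraries held 25857770 (High) and 27832061 (Low) reads assigned to genes. The mitochondrial ribosomal RNAs took 63.4% of these reads in High and 59.8% in Low, and protein-coding genes 28.6% and 32.8%. The ratio between the libraries thus depends on how they are scaled: library totals set each gene against all reads, whereas TMM, a trimmed mean over genes, sets the bulk of the genes equal. Values below are log2 ratios of High to Low after TMM unless totals are named, and totals move every ratio by -0.29. The whole-cell libraries had an unlike make-up. The mitochondrial ribosomal RNAs took 0.0926% of gene reads in High and 0.0583% in Low whole-cell RNA, and protein-coding genes 90.9% and 90.3%. Shares and read numbers set between the 2 kinds of library are therefore not like for like. All 12 fibroblast markers were measured, with a median of 0.09 after TMM and -0.20 by totals. Of the other lists of cell type markers, 0 of 9 immune and 0 of 8 Schwann and melanocyte markers reached 1 CPM (reads of a gene scaled to a common library size), and keratinocyte, endothelial and adipocyte lists had 1 each, mural and muscle cells 2 of 8 and chondrocytes 5 of 9. The chondrocyte markers held 0.0116% of reads in High and 0.0144% in Low, with a pulldown median of -0.05. In whole-cell RNA they held 0.0289% and 0.0203%, and Cnmd (99 and 14 reads, 2.73) and Col2a1 (1922 and 766, 1.24) were higher there. The part of this in the pulldown results was not tested. The immune markers Adgre1 and Cd3e had 0 reads in both pulldowns, and Cd68, the immune marker with the most reads, had 10 in High and 24 in Low.

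Genes were measured where their mean over both pulldowns was at least 1 CPM, which left 10736. The call of a gene as higher or lower required its whole interval to lie beyond 2-fold. After TMM, 368 genes (3.43%) were higher in High and 311 (2.90%) lower. By library totals the same rule gave 238 genes (2.22%) higher and 608 (5.66%) lower, so the share of higher genes among all calls was 54.2% after TMM and 28.1% by totals. In whole-cell RNA 15 of 13519 genes (0.111%) were higher and 18 (0.133%) lower.

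The spread between the pulldowns was wider than counting error. The interval excluded 0 for 64.1% of the measured genes, against 38.5% in whole-cell RNA and 5% from counting error alone. Among genes with up to 100 reads over both pulldowns, the ratios from the 10th to the 90th percentile ran from -1.55 to 1.40 and 13.1% were called. Between 500 and 1000 reads they ran from -0.69 to 0.67, against -0.35 to 0.27 in whole-cell RNA, and 3.96% were called. A single gene with few reads therefore carries less weight than its counting interval shows, and groups of genes and genes with many reads are given first.

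**Figure D1:**
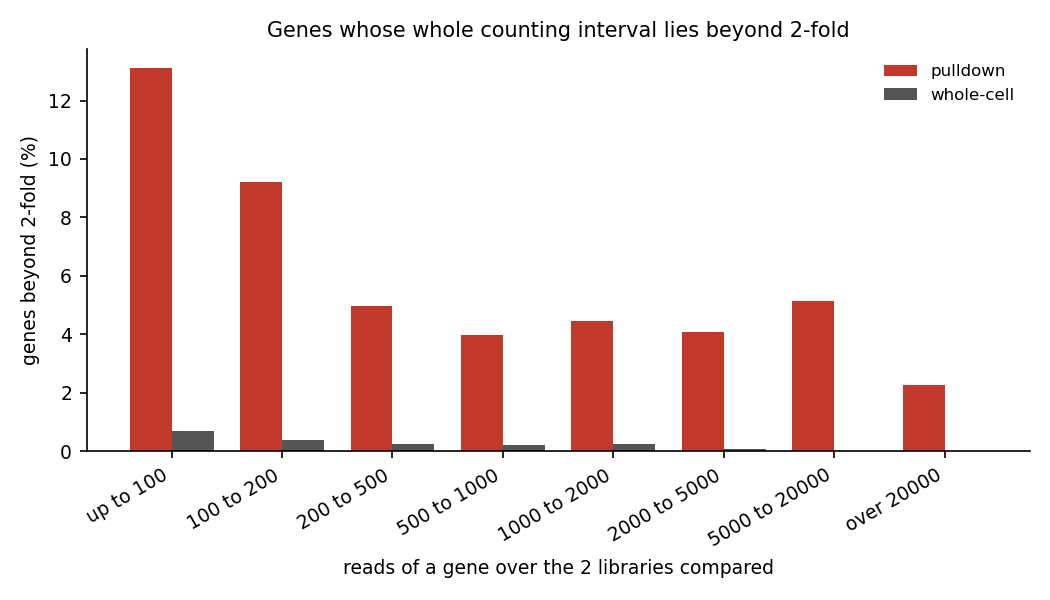
Percent of genes whose whole 95% counting interval lay beyond 2-fold (y axis), by the reads of a gene over the 2 libraries compared (x axis), for the pulldown (red) and whole-cell RNA (grey). In the pulldown the percentage is 13.1% up to 100 reads and 3.96% between 500 and 1000 reads, and in whole-cell RNA it stays at or below 0.694%.

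The genes that stood highest in the AF357425-High pulldown were interferon-stimulated genes. Type I interferons bind a receptor at the cell surface, the kinases Jak1 and Tyk2 then activate transcription factors, and these enter the nucleus and switch on antiviral genes through a promoter sequence called the interferon-stimulated response element. Of the 188 genes in the interferon lists, 141 were measured, and 107 of these were higher and 0 lower, with a median of 2.14. By library totals 95 were higher and 2 lower, Dhx9 and Jak2. Outside these lists 261 of 10595 measured genes (2.46%) were higher and 311 (2.94%) lower. The 47 members not measured had at most 50 reads over both pulldowns, and 23 of them had 0 reads in both. A member could pass the filter through its reads in High alone, so the count was repeated over members with at least 1 CPM in the Low pulldown, a choice made after the data were seen: 89 of 123 were then higher. The spans of 55 of the 141 measured members overlap another annotated gene, and several families described below hold near-identical copies whose reads the counting may have split, so single values in them are uncertain.

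**Figure D2:**
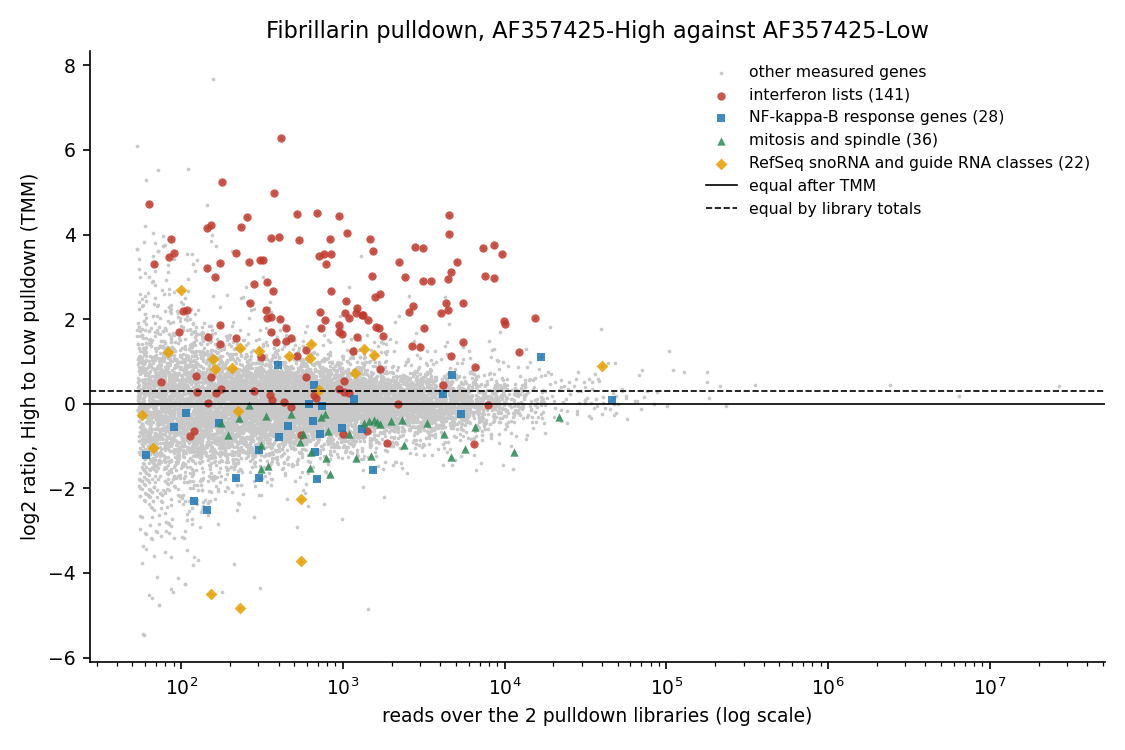
Log2 ratio of the High to the Low pulldown after TMM (y axis) against the reads of each gene over both libraries (x axis, log scale), for measured genes with at least 1 read in each pulldown, which leaves out 3 genes. The interferon genes (red circles) reach ratios above 4, mitosis genes (green triangles) lie below 0, blue squares are NF-kappa-B response genes, gold diamonds are snoRNA and guide RNA genes, and the dashed line marks where a gene would be equal by library totals.

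The interferons themselves had few reads. Ifna4, an alpha interferon, had 30 reads in High and 0 in Low. Against a floor of 3 reads in the Low library the log2 ratio is 3.72, without the counting error of the 30 reads. Ifnb1, which encodes interferon beta, had 10 and 2 reads, and both genes had 0 reads in both whole-cell libraries. Neither reached the filter. The receptor genes were measured and not called: Ifnar1 had 942 and 1242 reads (0.00, -0.12 to 0.13), Ifnar2 0.21, Ifngr2 -0.08, Il10rb 0.30 and the interferon gamma receptor Ifngr1 -0.65 (-0.81 to -0.48).

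Sensors of foreign nucleic acid were higher in 12 of 20 measured members and lower in 0, with a median of 1.40. Zbp1, a sensor of left-handed nucleic acid, had 1357 reads in High and 121 in Low (3.89, 3.62 to 4.17). Nlrc5, the activator of MHC class I genes, had 272 and 34 (3.40, 2.88 to 3.96), and Tlr3, the endosomal receptor for double-stranded RNA, 1395 and 304 (2.60, 2.42 to 2.78). The cytosolic RNA helicases Dhx58 (260 and 74), Ifih1 (1973 and 575) and Ddx58 (3751 and 1795) stood at 2.21, 2.18 and 1.46, and the kinase Eif2ak2, which halts translation on double-stranded RNA, had 11586 and 3772 reads (2.02, 1.97 to 2.07). Each of these had more reads in High than in Low under both scalings. The adaptors downstream were not called: Mavs had 190 and 244 reads (0.04), Ticam1 0.29, Tbk1 0.55 and Tmem173 -0.74 (-1.01 to -0.48). Dhx9, a nuclear RNA helicase, had 1825 and 4655 reads and a ratio of -0.95 (-1.03 to -0.87), which was lower by totals at -1.24.

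In the signalling chain 5 of 17 measured genes were higher and 0 lower, with a median of 0.34 after TMM and 0.04 by totals. Irf7, the transcription factor that amplifies interferon production, had 693 reads in High and 93 in Low (3.30, 2.98 to 3.63). Usp18, which removes Isg15 and damps the receptor, had 560 and 164 (2.17, 1.92 to 2.43). Stat2 (1.38) and the feedback inhibitor Socs3 (1.26) were higher after TMM and not by totals. The receptor kinases Jak1 (-0.02) and Tyk2 (0.03) and the factors Irf9 (0.34), Irf1 (0.08) and Irf3 (-0.77) were not called, and Jak2 had -0.94 (-1.09 to -0.79), which was lower by totals at -1.23.

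Of 58 measured antiviral effectors 52 were higher and 0 lower, with a median of 2.38. With at least 1 CPM in the Low pulldown 43 of 49 were higher, with a median of 2.16. Sp110, a nuclear body protein, had 358 reads in High and 15 in Low (4.98, 4.24 to 5.83). Cmpk2, a mitochondrial nucleotide kinase, had 890 and 54 (4.44, 4.05 to 4.87). The Ifit genes encode proteins that bind foreign RNA ends: Ifit3 had 7866 and 765 reads (3.76), Ifit1 6552 and 1064 (3.02) and Ifit2 2089 and 345 (3.0). Rsad2, which makes a chain-terminating nucleotide, had 2838 and 291 (3.69), and Isg15, a ubiquitin-like modifier, 2985 and 528 (2.90, 2.77 to 3.04). The oligoadenylate synthetases, which make a signalling nucleotide on double-stranded RNA, had fewer reads: Oas2 142 and 10 (4.23), Oas3 219 and 16 (4.18) and Oas1a 79 and 7 (3.90). The High library held more reads for every gene named so far in this group. Those not called were Apobec3 (1.14, 0.88 to 1.40), Ifitm3 (3843 and 2762 reads, 0.88), Plscr1 (0.66), Oas1b (0.52), Ifitm2 (0.21) and Ifi27 (0.13, -0.10 to 0.35), so not every effector followed the group.

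The interferon-inducible GTPases, which disrupt the vacuoles of intracellular pathogens, had the highest median of the lists, 3.50, and all 16 measured members of 22 were higher. With at least 1 CPM in the Low pulldown 14 of 14 were higher, with a median of 3.61. Gbp2 had 4196 reads in High and 342 in Low (4.02, 3.86 to 4.18), Gbp3 6703 and 686 (3.69, 3.58 to 3.80) and Iigp1 7410 and 1241 (2.98, 2.89 to 3.07). Tgtp2 had 490 and 29 (4.48). Mx1 had 654 and 38 (4.51, 4.03 to 5.02) and Mx2 301 and 142 (1.48); RefSeq classes both as transcribed pseudogenes. Of the 6 members below the filter, Gbp4 had the most reads, 21 in High and 16 in Low.

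The Ifi200 genes, nuclear DNA-binding proteins encoded in a cluster on chromosome 1, were higher in all 10 measured members of 13, with a median of 2.92. Only 6 of them also had 1 CPM in the Low pulldown, all 6 were higher, and their median was 2.18. Ifi206 had the largest ratio among the genes named here, 6.27 (5.22 to 7.60), from 410 reads in High and 7 in Low. Ifi207 had 985 and 79 (4.04, 3.71 to 4.39), Ifi203 1281 and 293 (2.53), Ifi204 1021 and 315 (2.10) and Ifi211 745 and 412 (1.26, 0.96 by totals). The family member Aim2 had 8 and 15 reads and was not measured.

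Of 11 measured genes of antigen presentation 9 were higher, with a median of 2.09. With at least 1 CPM in the Low pulldown 7 of 9 were higher, with a median of 1.69. H2-T23, which encodes the MHC class I molecule Qa-1, had 306 reads in High and 64 in Low (2.66, 2.27 to 3.07), the immunoproteasome subunit Psmb10 138 and 23 (2.99) and its activators Psme1 997 and 309 (2.09) and Psme2 668 and 274 (1.69). B2m, the light chain of MHC class I, had 7812 and 4421 (1.22 after TMM, 0.93 by totals). Erap1 (0.64) and H2-T24 (-0.70) were not called. The classical MHC class I genes H2-D1 and H2-K1 and the genes Tap1, Tap2, Psmb8 and Psmb9 were listed with at most 1 read in any library, so the pulldown says nothing about them. Among chemokines and ligands 6 of 7 measured members were higher: Cxcl10, which attracts T cells, had 4301 and 259 reads (4.45, 4.27 to 4.64), the checkpoint ligand Cd274 1381 and 149 (3.61) and the death ligand Tnfsf10 231 and 30 (3.35). The exception was Cxcl9, with 116 and 58 reads (1.40, 0.93 to 1.88). With at least 1 CPM in the Low pulldown 5 of 6 chemokines and ligands were higher.

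The difference was much smaller in whole-cell RNA. For the 109 interferon genes with at least 10 reads in each of the 4 libraries, the median ratio was 1.95 in the pulldown and 0.14 in whole-cell RNA. In whole-cell RNA 74 of them were positive, against 5088 of all 10300 genes with that many reads. None of the 109 was called there, where 0.111% of all genes were called higher. Whole-cell medians of the lists ran from -0.24 (chemokines and ligands) to 0.65 (GTPases, 7 of 7 positive). Taking the difference of the ratios, pulldown minus whole-cell, 63 of the 109 changed upward with an interval wholly beyond 2-fold. Over all 10300 such genes 280 (2.72%) changed upward and 186 (1.81%) downward. These counts are after TMM, and by library totals 124 of all such genes changed upward and 565 downward.

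Some of these RNAs were also more frequent in the pulldown of either state than in whole-cell RNA. Cxcl10 had 8 and 2 reads in the High and Low whole-cell libraries, Rsad2 14 and 9, Ifi44 43 and 50 against 8676 and 990 in the pulldowns, and Gbp5 0 and 1 against 288 and 52. The interferon genes made up 2.66% of protein-coding reads in the High pulldown, 0.744% in the Low pulldown, and 0.419% and 0.393% in High and Low whole-cell RNA. Of all gene reads they were 0.766% and 0.246% in the High and Low pulldowns, against 0.385% and 0.359% in whole-cell RNA. By this share the Low pulldown lay below Low whole-cell RNA. Whether these differences come with the pulldown, with the depletion of ribosomal RNA applied to pulldowns alone, or with the cultures cannot be told apart. The sources used here do not say that both kinds of library share cultures. Fewer cells with an active response and less RNA per cell likewise cannot be told apart in bulk RNA. The immune cell markers were at 36 reads in High and 62 in Low, summed over the list.

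**Figure D3:**
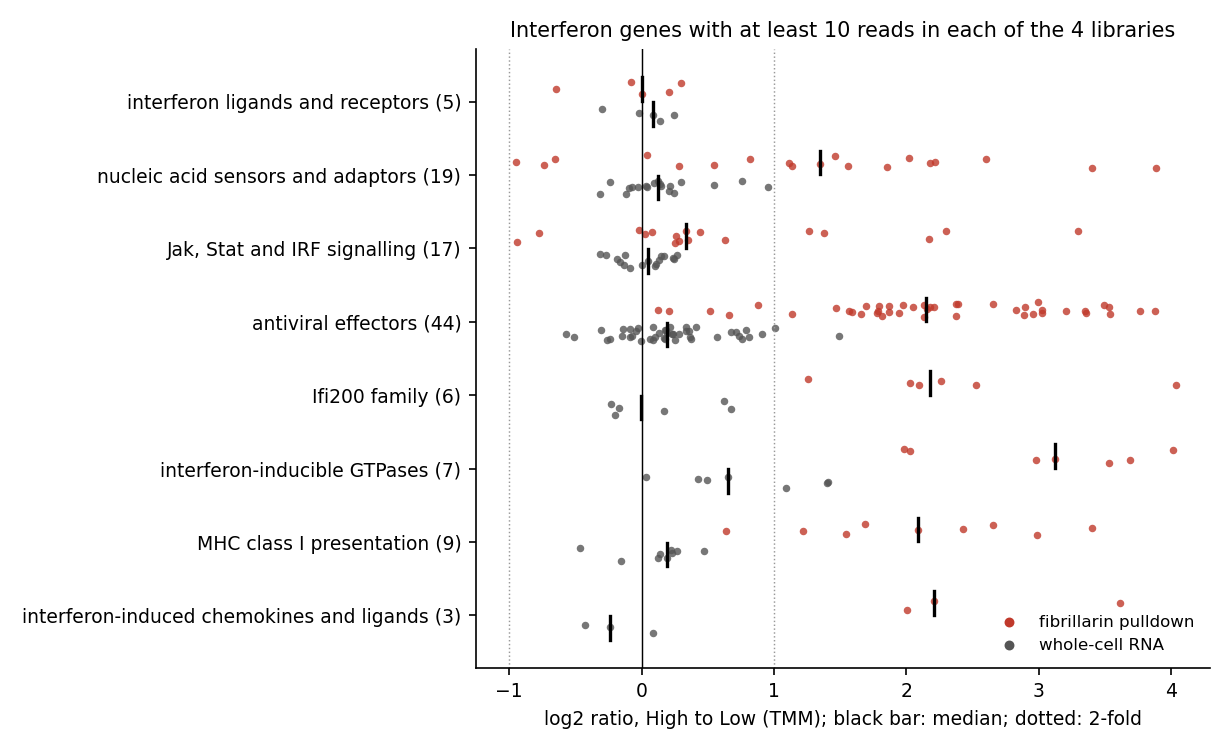
Log2 ratios of High to Low (x axis, TMM) in the pulldown (red) and in whole-cell RNA (grey) for interferon genes with at least 10 reads in each of the 4 libraries, by role (y axis, number of genes in brackets); each point is a gene and black bars are medians. The antiviral effectors have medians of 2.15 in the pulldown and 0.19 in whole-cell RNA and the 5 receptor genes have a pulldown median of 0.00, with Ifngr1 at -0.65.

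The promoters of the genes that stand highest are shown because the response element is the sequence through which type I interferon acts on its target genes. The stretches are the 250 bases before the annotated start from RefSeq (GRCm38.p6), written 5′ to 3′ on the gene's strand, with each match to the element on either strand in capitals. The element was searched as GAAA, any 2 bases and GAAA. The 4 shown are from the interferon genes with the highest lower limits that hold a match: Ifi206 at chr1:173491319-173491568 (minus strand), Cxcl10 at chr5:92348890-92349139 (minus), Tgtp2 at chr11:49064213-49064462 (minus) and Gbp2 at chr3:142620413-142620662 (plus).
Ifi206: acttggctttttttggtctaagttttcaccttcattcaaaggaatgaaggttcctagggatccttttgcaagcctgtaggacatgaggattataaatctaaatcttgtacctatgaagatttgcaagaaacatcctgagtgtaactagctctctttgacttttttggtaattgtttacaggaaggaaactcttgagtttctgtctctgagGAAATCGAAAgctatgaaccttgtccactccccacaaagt
Cxcl10: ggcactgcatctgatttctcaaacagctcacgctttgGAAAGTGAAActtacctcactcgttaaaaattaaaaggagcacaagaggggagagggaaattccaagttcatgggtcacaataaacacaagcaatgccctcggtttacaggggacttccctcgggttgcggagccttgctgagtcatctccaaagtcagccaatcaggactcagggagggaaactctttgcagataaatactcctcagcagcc
Tgtp2: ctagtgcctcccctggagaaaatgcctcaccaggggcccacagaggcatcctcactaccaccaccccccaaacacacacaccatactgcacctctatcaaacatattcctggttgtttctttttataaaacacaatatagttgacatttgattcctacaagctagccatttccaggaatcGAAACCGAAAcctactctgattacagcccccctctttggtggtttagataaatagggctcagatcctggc
Gbp2: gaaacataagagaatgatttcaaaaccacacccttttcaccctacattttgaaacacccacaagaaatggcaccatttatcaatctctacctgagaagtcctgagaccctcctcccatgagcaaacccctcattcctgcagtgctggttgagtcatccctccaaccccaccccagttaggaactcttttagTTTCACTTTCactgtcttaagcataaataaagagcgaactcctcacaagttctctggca

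The match starts 40 bases before the annotated start in Ifi206, 213 in Cxcl10, 70 in Tgtp2 and 59 in Gbp2, where it lies on the other strand. RefSeq promoter windows of 300 bases, 250 before to 50 after a start, were matched by symbol to 8110 measured genes. The element occurred in any window of 26.3% of the 243 higher genes with a window, of 2.74% of the 219 lower genes and of 3.23% of the 7648 not called. Over all 27025 genes of the promoter table the share was 3.99%. It was 46% of the 113 matched interferon genes, with 8 of 9 in the GTPases and 8 of 9 in the Ifi200 family. Among the 159 higher genes outside the interferon lists it was 11.3%. Over genes with 1 window, an alternative chosen after the data were seen, these shares were 25% of higher genes, 1.09% of lower genes, 2.59% of those not called, 47.3% of interferon genes and 7.32% of higher genes outside the lists. Seen from the sequence, 20.2% of the 317 measured genes with a match were higher, against 2.3% of the 7793 without one, and the medians were 0.31 and -0.03. In whole-cell RNA both medians were -0.00. A match is a run of letters and not a shown binding site, and no match says only that these letters are not in this window.

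Genes of the NF-kappa-B response, the other main arm of the reply to nucleic acid sensors, were mostly below 0. Of 28 measured members 6 were lower in High and 1 was higher, 21 were negative, and the median was -0.54 (-0.83 by totals, with 8 lower and 0 higher), against 2.90% lower and 3.43% higher over all measured genes. At 5 CPM 3 of 21 were lower, and with at least 1 CPM in High 4 of 25. Relative to whole-cell RNA, 4 of 26 members changed upward and 3 downward beyond 2-fold. The lower genes were the chemokine Cxcl2 (17 reads in High and 128 in Low; -2.51, -3.34 to -1.78), the adhesion molecule Icam1 (16 and 104; -2.30), the NF-kappa-B inhibitors Nfkbia (125 and 569; -1.79, -2.08 to -1.50) and Nfkbie (55 and 246; -1.76), the cofactor Bcl3 (40 and 179; -1.76) and the deubiquitinase Tnfaip3 (312 and 1225; -1.57, -1.76 to -1.39). Of these 6, Nfkbia, Nfkbie and Tnfaip3 encode feedback inhibitors of the pathway. The higher gene, Ptgs2, encodes the prostaglandin synthase induced in inflammation and had 10426 and 6438 reads (1.10 after TMM, 0.80 by totals). Among those not called were Il6 (0.45), Ccl2 (0.24), Csf1 (20555 and 25641 reads, 0.08), Vcam1 (-0.25), Rela (-0.02) and Nfkb1 (-0.60). In whole-cell RNA 2 members were called, Ccl7 and Ccl2, which are in the same direction there, lower in High at -1.51 and -1.24.

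To show the motif that NF-kappa-B recognizes, the promoters of Cxcl2 (chr5:90903649-90903898, plus strand) and Nfkbia (chr12:55492648-55492897, minus) are given over the same 250 bases. Matches on either strand to the kappa-B motif, searched as GGGAA, any 3 bases and CC, are in capitals. They are the lower list members farthest from 0 that hold a match.
Cxcl2: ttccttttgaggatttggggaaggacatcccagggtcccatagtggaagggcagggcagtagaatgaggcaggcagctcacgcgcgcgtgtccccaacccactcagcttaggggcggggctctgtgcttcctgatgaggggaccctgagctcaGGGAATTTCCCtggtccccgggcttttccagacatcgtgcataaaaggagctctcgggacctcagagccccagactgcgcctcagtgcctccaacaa
Nfkbia: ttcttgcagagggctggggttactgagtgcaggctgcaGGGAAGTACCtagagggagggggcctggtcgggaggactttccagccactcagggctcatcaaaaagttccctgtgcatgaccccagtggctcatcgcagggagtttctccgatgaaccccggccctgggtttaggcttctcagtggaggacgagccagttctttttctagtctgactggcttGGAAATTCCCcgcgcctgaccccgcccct

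Matches in Cxcl2 overlap each other in a palindrome, and those in Nfkbia are 2 separate runs. The kappa-B motif was found for 10 of 21 matched genes of the list (47.6%), against 11.9% of all higher genes, 8.22% of lower genes, 8.29% of genes not called and 6.59% of the whole promoter table. Of the genes in that table, 75 hold both this motif and the interferon element, and in 4 of them the runs share bases. The list was chosen for its known response, so its share describes the list and not the comparison.

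**Figure D4:**
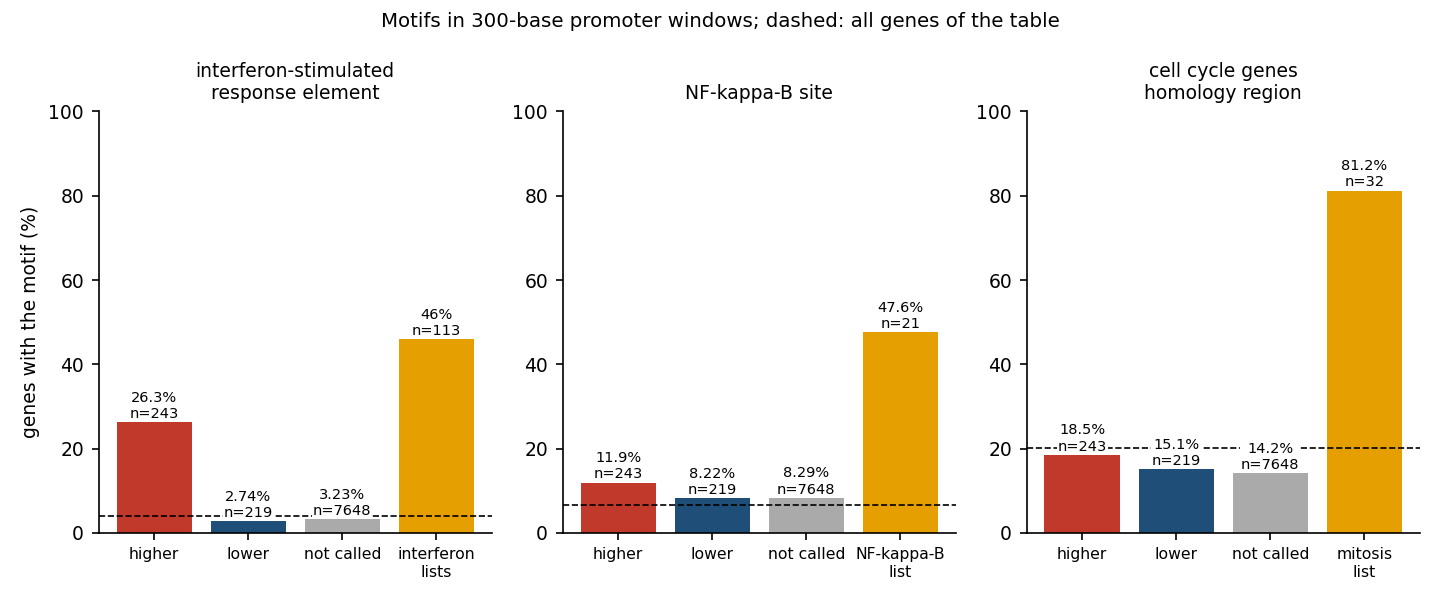
Percent of genes with a motif in a promoter window of 300 bases (y axis), for measured genes called higher (red), lower (blue) or not called (grey) in the pulldown and for the list tied to each motif (orange); n is the number of genes, and the dashed line is the share of all genes in the promoter table. The response element stands at 26.3% of higher and 2.74% of lower genes, and the other motifs differ less between the calls.

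The immediate early genes, which respond to growth factors and stress within minutes, showed no common direction: of 25 measured, 1 was lower, 12 were positive and 13 negative, with a median of -0.01. The share of all measured genes called lower was 2.90%. The lower gene in this list was Egr2, with 123 reads in High and 404 in Low (-1.31, -1.62 to -1.02). Dusp1, a phosphatase of MAP kinases, had 895 and 582 (1.02, 0.87 to 1.17), Fos 305 and 438 (-0.12) and Myc 703 and 1382 (-0.57).

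Guide RNAs of the C/D box kind are direct partners of fibrillarin, but few guide RNAs of any kind had enough reads in the gene table. Of 116 C/D box snoRNA genes 4 were measured, and 3 were lower in High, where 2.90% of all measured genes were. The direction of this list depended on the filter. With at least 1 CPM in Low, 3 of 6 were lower and 0 higher (median -1.47), and with at least 1 CPM in High, 1 of 4 was lower and 2 were higher (median 1.39), both filters chosen after the data were seen. The 2 higher genes, Snord98 (31 reads in High and 1 in Low) and Snord104 (29 and 7), were below the mean of 1 CPM. At a mean of 5 CPM 1 of 2 was lower. Snord83b had 6 reads in High and 226 in Low (-4.83, -6.30 to -3.69), Snord92 5 and 148 (-4.49, -6.13 to -3.23) and Snord118, the U8 RNA needed for maturation of the large ribosomal subunit, 76 and 475 (-2.24, -2.61 to -1.89). Snord17 had 345 and 364 (0.32, 0.11 to 0.54). Another locus of the snoRNA class, Gm26109 inside Hspa9, was picked after its value was seen and had 30 and 518 reads (-3.71, -4.29 to -3.18). In whole-cell RNA these 5 had 7 to 69 reads in High and 5 to 58 in Low, and none was called. Summed, the C/D list held 0.00231% of the reads in the High and 0.00508% in the Low pulldown. In whole-cell RNA it held 0.00218% in High and 0.00173% in Low. In the pulldowns the 3 lower members had 87 reads in High and 849 in Low, and all other members together 510 and 565. The whole RefSeq snoRNA class held 0.0107% and 0.0128%, and of its 13 measured genes 4 were lower and 1 higher.

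Small Cajal body RNAs, which guide modification of spliceosomal RNAs, lay above 0. They were not split by box kind, and any C/D box guides among them are not counted in the C/D list above. Of 5 measured, all were positive, with a median of 1.07 after TMM and 0.78 by totals. After TMM 2 were higher, and 1 was by totals. With at least 1 CPM in Low, 1 of 4 was. The shares of all measured genes called higher were 3.43% after TMM and 2.22% by totals. Scarna6 had 83 reads in High and 17 in Low (2.69, 1.92 to 3.53), Scarna2 875 and 468 (1.30 after TMM, 1.01 by totals), Scarna9 386 and 242 (1.07), Scarna13 96 and 61 (1.06) and Scarna17 119 and 87 (0.85). The guide RNA locus with the most reads, the predicted gene Gm22009 inside Kpna4, named after its values were seen, had 23247 and 16622 (0.88, 0.86 to 0.91), against 423 and 350 in whole-cell RNA. The only measured H/ACA member by name, Snora23, had 92 and 69 (0.82). Summed, the Cajal body RNAs held 0.00603% of reads in the High and 0.00315% in the Low pulldown. These shares were below the 0.0121% and 0.0123% in High and Low whole-cell RNA. The H/ACA snoRNAs held 0.000418% and 0.000316% in the pulldowns, against 0.00125% and 0.00143% in whole-cell RNA.

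Many guide RNAs are cut from introns of host transcripts. Of 26 measured hosts 4 were lower and 0 higher, with a median of -0.12 (-0.41 by totals), against 2.90% lower over all measured genes. The lower hosts were Snhg15 (47 reads in High and 471 in Low; -2.92, -3.39 to -2.49), Snhg17 (62 and 390; -2.25), Rack1 (88 and 415; -1.84) and Snhg1 (177 and 629; -1.43). Rack1 is a ribosomal scaffold protein, and the other 3 are non-coding hosts. Gas5 had 2120 and 3670 (-0.39) and Rian, the host that spans AF357425, 2675 and 3110 (0.18 after TMM, -0.11 by totals). These hosts overlap their own snoRNAs, and reads of host and guide cannot be told apart here. In whole-cell RNA none was called, and Snhg1 stood at 0.50 there.

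The messenger RNAs of the particle's own proteins were measured as well. Fbl, which encodes fibrillarin, had 326 reads in High and 188 in Low (1.20, 0.93 to 1.46; 0.90 by totals), and Snu13 59 and 39 (1.00). Nop58 had 2135 and 3385 (-0.26) and Nop56 1464 and 2681 (-0.47), so the 4 core proteins had 2 ratios above and 2 below 0, and none was called. Among 11 measured assembly factors Znhit6, which joins early in C/D particle assembly, was higher with 733 and 229 reads (2.08, 1.86 to 2.30), and in whole-cell RNA it had 470 and 469. The share of all measured genes called higher was 3.43%. Coil, the scaffold protein of Cajal bodies, had 37 and 117 (-1.26 after TMM) and was lower by totals at -1.55. Among the H/ACA core proteins Nhp2 stood at 1.10, Gar1 at 0.48 and Dkc1 at -0.03.

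**Figure D5:**
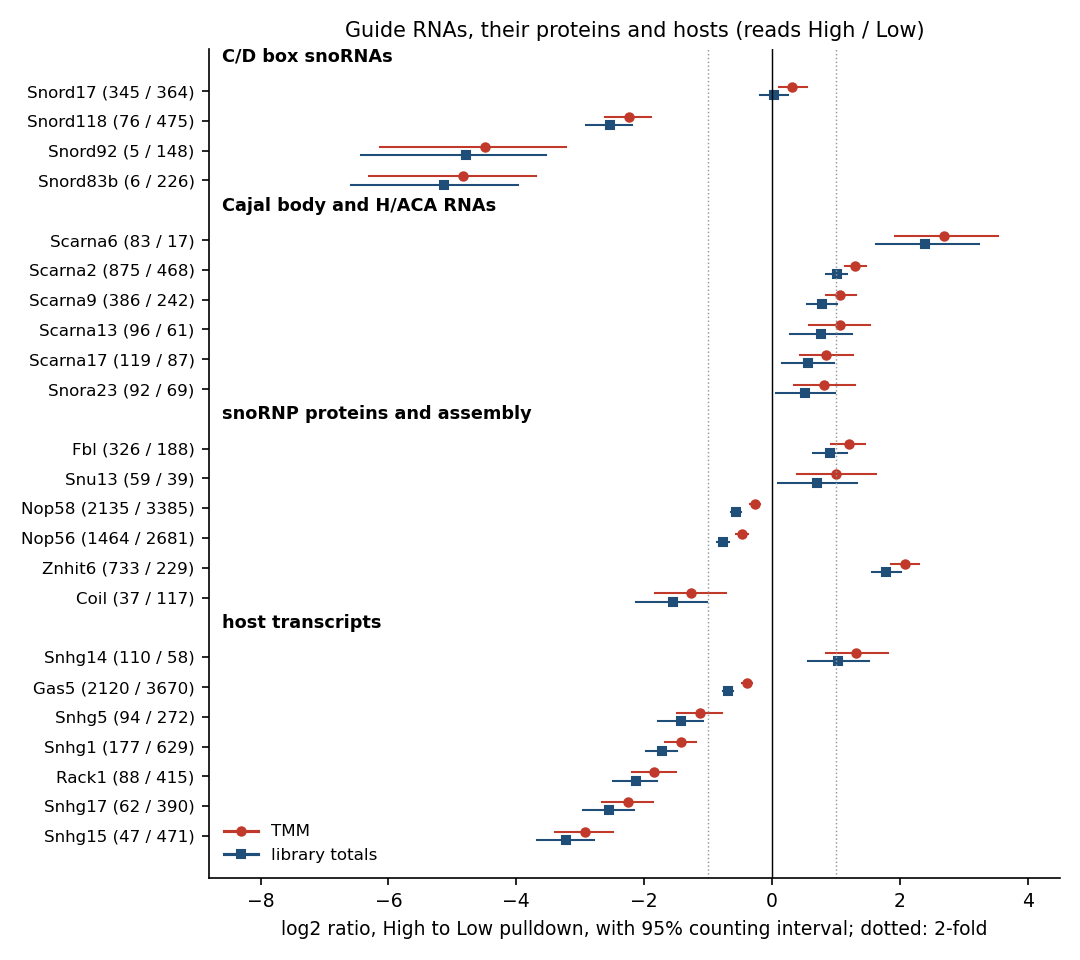
Log2 ratio of the High to the Low pulldown (x axis) with its 95% counting interval, after TMM (red circles) and by library totals (blue squares), for guide RNAs, snoRNP proteins and host transcripts (y axis, reads in High and Low in brackets). Snord83b, Snord92 and Snord118 lie below 2-fold lower under both scalings, while the Cajal body RNAs lie above 0.

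Other structured RNAs and loci that resemble ribosomal RNA gave a mixed picture. Rn7sk, the RNA that holds the elongation factor P-TEFb inactive, had 6810 reads in High and 5667 in Low (0.67), and Rnu5g, a U5 spliceosomal RNA, 138 and 516 (-1.50, -1.78 to -1.23). The lowest ratio from over 1000 reads belonged to Mir6240, annotated as a microRNA, with 37 reads in High and 1402 in Low (-4.84, -5.36 to -4.37) and 0 in both whole-cell libraries. Its RefSeq mature sequence (chr5:114851973-114851998, plus strand, GRCm38.p6) is printed with the seed, bases 2 to 8, in capitals, followed by the hairpin (chr5:114851948-114852064), since the gene table does not say which of them the reads cover.
mmu-miR-6240: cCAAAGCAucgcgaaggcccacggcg
Mir6240 hairpin: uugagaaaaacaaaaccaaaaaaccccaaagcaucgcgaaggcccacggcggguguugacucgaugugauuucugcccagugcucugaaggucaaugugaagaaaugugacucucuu

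Other loci with ribosomal-like sequence had smaller ratios: CT010467.1 had 1214923 and 1182446 reads (0.44), Lars2 40326 and 30541 (0.80), Mir6236 7043 and 5076 (0.87), Gm15564 5315 and 3958 (0.83) and Gm26917 245 and 529 (-0.71). In whole-cell RNA Lars2 (-0.91), Mir6236 (-1.10) and Gm15564 (-1.15) had ratios of the opposite sign. Ribosomal RNAs of the mitochondrion were not called, with mt-Rnr1 and mt-Rnr2 at 0.43 and 0.19 after TMM and at 0.13 and -0.11 by totals. Of 13 mitochondrial mRNAs none was called, with mt-Co2 at 0.81 and the light-strand transcript mt-Nd6 at -0.37 (21039 and 35844 reads), and their median changed sign with the scaling, 0.14 against -0.16.

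Among 15 measured nuclear long non-coding RNAs 2 were higher and 0 lower after TMM, and 2 higher and 1 lower by totals. Of all measured genes 3.43% were higher and 2.90% lower after TMM, and 2.22% and 5.66% by totals. Malat1, a speckle RNA, had 28571 reads in High and 11031 in Low (1.77, 1.74 to 1.81), against 341039 and 478341 in whole-cell RNA (-0.58). Dnm3os, the precursor of miR-199a and miR-214, had 557 and 258 (1.51, 1.30 to 1.73), and Neat1, the scaffold of paraspeckles, 2138 and 1465 (0.95). Mir22hg had 186 and 577 (-1.23) and was lower by totals. Of the Dlk1-Dio3 transcripts, Meg3 had 560 and 1021 (-0.47), Dio3 475 and 448 (0.49) and Dlk1 35 and 65 (-0.49), and none of the 5 measured was called.

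Genes of mitosis stood below 0 as a group. All 36 were measured and negative under both scalings, 9 were lower (12 by totals) and 0 higher, and the median was -0.68. Over all measured genes 2.90% were lower (5.66% by totals). The motor Kif23, which builds the midbody, had 161 reads in High and 675 in Low (-1.67, -1.92 to -1.42), Plk1, a kinase that drives mitotic entry, 64 and 248 (-1.55), the checkpoint kinase Bub1 130 and 495 (-1.53), the microtubule depolymerase Kif2c 74 and 269 (-1.46), Ccnb1, the mitotic cyclin, 188 and 600 (-1.27), and the DNA topoisomerase Top2a 2921 and 8549 (-1.15, -1.21 to -1.09). Mki67 had 8259 and 13580 (-0.32). The whole-cell ratios of all 36 were negative too, with a median of -0.42, and no member's ratio differed between pulldown and whole-cell RNA by more than 2-fold with its whole interval. Genes of DNA replication lay closer to 0: 33 measured, 25 negative, 1 lower, with a median of -0.22. The lower gene was Gins1, with 2 and 71 reads (-4.75, -7.82 to -2.84), and it stood at 0.03 in whole-cell RNA; with at least 1 CPM in High 0 of 30 were lower. The 15 measured replication-dependent histones had a median of -0.63 and 0 calls, or -0.92 and 2 lower by totals, where DNA replication had 3 lower.

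Promoters of mitotic genes carry the cell cycle genes homology region, TTTGAA, at which the DREAM complex represses them in resting cells. The promoter of Top2a (chr11:99024190-99024439, minus strand), the first of the lower list members with a match, is shown with matches on either strand in capitals.
Top2a: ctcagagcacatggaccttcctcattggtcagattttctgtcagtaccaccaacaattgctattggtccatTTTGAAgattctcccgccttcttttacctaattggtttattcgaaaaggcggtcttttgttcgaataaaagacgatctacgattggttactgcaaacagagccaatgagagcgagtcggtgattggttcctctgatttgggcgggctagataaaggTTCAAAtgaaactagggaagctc

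TTTGAA was found for 26 of 32 matched mitosis genes (81.2%), against 18.5% of all higher genes, 15.1% of lower genes, 14.2% of those not called and 20.2% of the promoter table. The motif is short and frequent, and it did not separate higher from lower genes. In 16 genes of the table it shares bases with the interferon element.

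Messenger RNAs of the translation machinery were mostly positive, and none was called. The 77 measured cytoplasmic ribosomal protein genes had a median of 0.44 and 69 positive ratios after TMM, or 0.15 and 49 by totals. Genes of ribosome biogenesis and RNA polymerase I had a median of -0.00, and 2 of 46 were lower: the pre-ribosomal factor Heatr1 (303 and 946 reads; -1.24) and Taf1b, a subunit of the polymerase I initiation factor (31 and 160; -1.97, -2.57 to -1.41). Of 50 splicing factors Tra2a was higher (1878 and 881 reads, 1.49) and 0 were lower, or 1 higher and 1 lower by totals. The calls in both lists were near the shares of all measured genes. These were 3.43% higher and 2.90% lower after TMM, and 2.22% and 5.66% by totals. Of 13 other RNA methyltransferases the cap methyltransferase Cmtr1 was higher after TMM (51 and 18; 1.90), but 0 were by totals, at 5 CPM or with at least 1 CPM in Low.

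Zinc finger genes of the Zfp group were the largest list. Of 297 measured 207 were negative, 11 lower and 3 higher, with a median of -0.25, or -0.55 by totals with 22 lower and 0 higher. Over all measured genes 2.90% were lower and 3.43% higher, so the calls alone were near the background. With at least 1 CPM in High 4 of 278 were lower and 4 higher. In whole-cell RNA the sign was the opposite: 225 of 292 members with at least 10 reads in each library were positive and 0 were called, against 5088 positive of all 10300 genes. The ratio changed downward from whole-cell RNA to the pulldown in 222 of them, 12 by more than 2-fold with the whole interval, against 1 upward. Over all 10300 genes 5250 changes were negative and 1.81% were beyond 2-fold downward.

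Adhesion and matrix genes, among them the main products of fibroblasts, had few calls. After TMM 1 of 15 integrin subunits, 2 of 25 collagens, 1 of 26 clustered protocadherins and 0 of 45 focal adhesion genes were lower, and 0 were higher. By totals 1, 2, 2 and 0 were lower. Over all measured genes 2.90% were lower after TMM and 5.66% by totals. Counts this small do not set these lists apart from all genes. The 15 measured integrin subunits had a median of -0.32 with 9 negative, or -0.61 with 13 negative by totals. Itga10, a collagen receptor, was lower (10 and 56 reads; -2.08, -3.22 to -1.10), and 0 of 14 were with at least 1 CPM in High. The other subunits included Itgb1 at 0.04 (10050 and 12918) and Itgav at -0.31. None of 45 focal adhesion genes was called, and their median was 0.09 after TMM and -0.20 by totals. The 25 measured collagens had a median of -0.11 (-0.41 by totals), and Col27a1 (59 and 282; -1.86) and Col15a1 (172 and 551; -1.28) were lower, while Col1a1 (26132 and 30196) stood at 0.19. Of 26 clustered protocadherins Pcdhb19 was lower (66 and 242; -1.47).

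Of the 12 genes farthest above 0 under both scalings, 11 belonged to the interferon lists. The exception was Tbxa2r, the thromboxane receptor, with 107 reads in High and 3 in Low (5.56, 3.97 to 7.86) and 12 in each whole-cell library. Of the 12 farthest below 0, Snord83b and Snord92 belong to the C/D list: besides Mir6240, Snord83b, Snord92 and Gins1 they were the kinase Stk36 (1 and 58), Veph1 (1 and 57), Rnf225 (2 and 71), Arhgap33 (3 and 86), Rmdn1 (3 and 83), Kcnip3 (4 and 102), Sh3d21 (4 and 101) and the potassium channel Kcnt2 (4 and 92). Apart from Mir6240 these genes had at most 6 reads in High and between 57 and 226 in Low, and genes with up to 200 reads over both pulldowns were called more often than those with more.

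Higher genes with many reads outside the lists, named after their values were seen, included Rnf213, a large ubiquitin ligase (13877 reads in High and 5205 in Low; 1.82, 1.77 to 1.86), the nuclear envelope protein gene Tor1aip1 (6612 and 2701; 1.69), Pdzd2 (3491 and 802; 2.52) and Pml, the organizer of PML nuclear bodies (771 and 355; 1.52). Lower ones were the chromatin remodellers Chd2 (2304 and 8885; -1.55, -1.61 to -1.48) and Atrx (2120 and 7660; -1.45), the condensin subunit Smc4 (1360 and 5311; -1.56) and the mitochondrial dehydrogenase gene Dld (254 and 1544; -2.20). In whole-cell RNA Dld (-0.98) and Atrx (-0.44) were also below 0, whereas Chd2 stood at 0.20. Longer protein-coding genes had lower ratios: in 5 classes of equal size, from the shortest to the longest, the medians were 0.09, 0.05, 0.02, -0.10 and -0.13, and in whole-cell RNA they lay between -0.03 and 0.01. The part of gene span or read level in the results above was not tested.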

How the data were processed

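RNA from the fibrillarin pulldown and from whole cells was sequenced (DNBseq), with 1 library for each AF357425 state. The deposited values are raw read counts per gene made by the authors. Per the submitters' processing notes, cutadapt 2.4, STAR 2.6.0c, HTSeq 0.9.1, StringTie 1.3.4 and the build GRCm38 were used, while the sources used here name neither the annotation nor the strand setting. Special count classes were left out of library totals: reads without a feature were 8.9% of the High and 6.57% of the Low pulldown fragments, and ambiguous ones 9.38% and 8.54%. Without a known strand setting, reads of overlapping or antisense genes cannot be told apart.

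Scaling factors were 0.903 (High) and 1.11 (Low) by TMM (edgeR 4.0.16, R 4.3.3). Each ratio has an exact Clopper-Pearson interval at 95%, computed with scipy 1.17.1. A gene at 0 was set at a floor of 3 reads in that library, 0.116 CPM in High and 0.108 in Low. The difference between pulldown and whole-cell ratios has a normal interval, over genes that reached 10 reads in all 4 libraries. The calculation of ratios and intervals was tested on simulated counts with known library totals and counting error alone. Spread beyond counting error, which the pulldowns showed, was not part of that test. No test between groups was possible with 1 library a side. Symbols were matched for 55450 of 55536 genes and RefSeq records for 38072.

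Named genes, apart from predicted genes and clone names, were the 12 highest and 12 lowest by the interval limit nearest 0 called under both scalings, up to 6 per direction in each list with all members not called where these were 5 or fewer, AF357425 and the long Dlk1-Dio3 transcripts, the 10 most abundant genes and the cell type markers. Further names serve as examples and were chosen after their values were seen. The comparison, its 47 gene lists and its rules were chosen with earlier results of these data known. Alternatives were library totals, median-of-ratios scaling, totals without mitochondrial ribosomal RNA, other filters and fold limits, genes free of overlap, and 1 promoter window a gene. Some list members are counted but not reported here by name.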

Additional observations from a re-analysis of the deposited data

Results flagged for a closer look

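Genes named or listed in the report whose pulldown and whole-cell ratios lay on opposite sides of 0 with their whole intervals under both scalings are given here as the pulldown minus the whole-cell log2 ratio. Only genes whose difference lay beyond 2-fold with its whole interval after TMM are listed, so smaller differences are left out. With 1 library in each group, the difference was not tested against replicates. Interferon-related genes had positive differences: Ifit2 3.51 (3.0 in the pulldown, -0.51 in whole-cell RNA), H2-T23 3.12 (2.66, -0.46), Lgals3bp 2.05 (1.79, -0.26) and B2m 1.38 (1.22, -0.16). In the inflammation lists Ccl7 stood at 2.19 (0.68, -1.51), Ier3 at 1.33 (0.93, -0.41) and Icam1 at -2.55 (-2.30, 0.25).

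Non-coding and ribosomal-like loci were Malat1 at 2.35 (1.77, -0.58), Gm15564 at 1.98 (0.83, -1.15), Mir6236 at 1.97 (0.87, -1.10), Lars2 at 1.72 (0.80, -0.91), Gm23935 at 1.37 (0.76, -0.61) and the snoRNA host Snhg1 at -1.92 (-1.43, 0.50). Zinc finger genes all had negative differences: Zfp667 -2.30 (-1.81, 0.49), Zfp932 -2.00 (-1.66, 0.33), Zfp970 -1.74 (-1.32, 0.42), Zfp709 -1.54 (-1.28, 0.26), Zfp748 -1.44 (-1.07, 0.37) and Zfp81 -1.31 (-0.94, 0.37). The collagen Col27a1 had -2.29 (-1.86, 0.44).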

How the results depend on the processing

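Scaling decided the balance of calls: library totals gave 238 higher and 608 lower genes in place of 368 and 311, and for the difference between pulldown and whole-cell RNA 124 upward and 565 downward in place of 280 and 186. Median-of-ratios scaling gave 358 and 321, and totals without the mitochondrial ribosomal RNAs 288 and 440. Filters moved the counts as well: 188 and 114 at 5 CPM (6887 genes), 932 and 756 without a filter (22896 genes), 233 and 165 without overlapping genes (5860 genes), 141 and 78 at 500 reads (5183 genes) and 247 and 475 with at least 1 CPM in the Low pulldown alone (11002 genes) or 516 and 156 in the High pulldown alone (10506 genes), the last 3 filters chosen after the data were seen. Fold limits of 1.5 and 4 gave 828 and 843, and 113 and 40. The lower NF-kappa-B genes were 3 of 21 at 5 CPM in place of 6 of 28. Higher interferon genes numbered between 87 and 110 under the scalings and the 5 CPM, Low-alone and High-alone filters. The C/D list changed the sign of its median with the filter, -1.47 by Low alone and 1.39 by High alone. Genes with up to 100 reads were called most often, and most guide RNA genes were below the filter; why they were was not tested. No paired analysis was possible because each group has 1 library.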
